A study of Mus musculus with 18 samples.

Results

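The comparison described here set naive CD4+ T cells that had lost LAT against naive CD4+ T cells that carried LAT with the Y136F substitution, both after 1 week of tamoxifen. It covers the 6 arrays whose titles name 1 week of tamoxifen and either LAT KO (3 mice) or LATY136F (3 mice), of 18 arrays in the series, and all autosomal genes measured on them. The array design names 16554 autosomal genes. Of these, 16448 had a probe well above background on at least 3 arrays and 16400 could be tested at 1 week.

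All mice were C57BL/6, and the cells were CD44low CD4+ T cells sorted from spleen. By the sample titles, LAT KO mice were ERCre+ LAT f/-, so that tamoxifen leads to deletion of the floxed allele, the other being null. Y136F mice were ERCre+ LAT f/m, so that only the mutant allele stays. WT mice were ERCre- LAT f/- and also received tamoxifen. The series design text gives the WT mice as Cre positive and the point mutant as Y136F/-, which differs from the titles for WT. If the titles hold, Cre and the change in LAT cannot be told apart in any comparison of a mutant with WT. Other mice of the same 3 genotypes were taken after 4 weeks, 3 per genotype. The promoter that drives ERCre is not given in the sources used here, and the share of cells that had recombined is not reported in the labels.

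LAT (linker for activation of T cells) is a membrane scaffold that is phosphorylated on tyrosines when the T cell receptor signals. The tyrosine that Y136F replaces recruits phospholipase C gamma 1, which drives calcium release and, through diacylglycerol, RAS-ERK and protein kinase C signalling, while the other tyrosines bind GRB2-family adaptors. Resting T cells receive a weak, continual signal through this scaffold, called tonic signalling, and immediate early genes such as those of the EGR and NR4A families are common readouts of it. The comparison therefore asks whether loss of the whole scaffold and loss of the phospholipase C gamma 1 site alone leave different expression in cells that are still naive by sort.

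No autosomal gene differed between LAT KO and Y136F cells at 1 week at an adjusted p under 0.05 (limma, Benjamini-Hochberg over all 31546 genes and unnamed sequences tested; 0 of 16400, or 0%). At an unadjusted p under 0.05 there were 1062 autosomal genes (6.48%), of which 299 were higher in LAT KO (1.82%) and 763 lower (4.65%). The LAT KO arrays measured lay entirely above or entirely below the Y136F arrays for 1874 genes (11.4%). With 3 arrays against 3, such separation has an exact two-sided permutation probability of 0.1 for a gene that does not differ. The probability is larger where an array is missing, so separation alone does not mark a difference. Of the 1874 genes, LAT KO was the higher group in 740 (4.51%) and the lower in 1134 (6.91%). The difference between LAT KO and Y136F was positive for 55.3% of autosomal genes. Its median over all of them was 0.04 on the log2 scale, the median size of a difference was 0.19 and its median standard error was 0.22. A difference of at least 2-fold was measured for 413 genes (2.52%). The smallest adjusted p among autosomal genes, 0.0845, belonged to Lat itself. The same contrast at 4 weeks, in other mice, called 661 of 16420 autosomal genes (4.03%), 199 higher (1.21%) and 462 lower (2.81%) in LAT KO. It called 122 genes when labelled sex entered the fit as a term. At 4 weeks all LAT KO mice were labelled male and all Y136F mice female. Labelled sex and genotype therefore cannot be told apart in the 4-week contrast.

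Several properties of the 6 arrays bear on these values. All Y136F mice were labelled female, and LAT KO mice female, female and male. LAT KO replicate 1, labelled female, had Y-linked signal like that of male-labelled arrays (Ddx3y -0.23, against -8.43 in LAT KO replicate 2) and Xist at -9.30. LAT KO replicate 2 at 4 weeks, labelled male, showed the opposite pattern (Ddx3y -8.92, Xist 0.21). Whether only the sex labels are wrong or these arrays were exchanged between 1 and 4 weeks cannot be told. The time point of LAT KO replicate 1 is therefore also uncertain, and results are also given without both arrays. LAT KO replicate 3 had 18.2% of its spots marked as outliers by the scanner software and left out, against 0.456% to 0.936% on the other 5 arrays, so 2838 genes were compared without it. LAT KO replicate 3 and Y136F replicate 1 shared a slide, and the other 4 arrays lay on other slides. The LAT KO mice also varied more among themselves: the median standard deviation over genes measured on all 6 arrays was 0.33 in LAT KO and 0.18 in Y136F, and it was larger in LAT KO for 79.9% of 13497 genes. The share of positive differences also fell with brightness. It was 83.6% in the dimmest of 5 equal groups of autosomal genes and 24.8% in the brightest. No gene list below was matched for brightness. The number of arrays limits the precision of every value below.

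Levels are given as scaled log2 signal, the log2 of the scanner's processed signal minus the 75th percentile of the same array, so that 0 is the signal of that percentile and each unit is a factor of 2. Differences are LAT KO minus Y136F on that scale, with the standard error of the fit to all 18 arrays.

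Lat was the check of the labels. The Lat probe read 2.32 and 2.73 in LAT KO replicates 1 and 3, and 4.26, 4.17 and 4.32 in Y136F replicates 1, 2 and 3; the spot of LAT KO replicate 2 was an outlier and was left out. The WT mice read 2.75, 3.47 and 3.37. Both LAT KO values lay below all Y136F values, with a difference of -1.72 ± 0.26 (SE; 95% interval -2.28 to -1.17; adjusted p = 0.0845), or 3.31-fold. With the outlier spot kept, LAT KO replicate 2 read 3.19 and the difference was -1.50 (two-sided exact permutation p = 0.1, the smallest that 3 against 3 allows). The limma fit with outlier spots kept gave an adjusted p of 0.581. Lat transcript signal thus read lower on every LAT KO array than on every Y136F array but was not called. It stayed well above background on all 6 arrays, and was higher in Y136F than in WT by 1.05 (adjusted p = 0.167). The difference between LAT KO and WT was -0.67 (adjusted p = 1), and the kept spot of LAT KO replicate 2 lay within the WT range, so the check of the deletion against WT was not passed at this number of arrays. The position of the Lat probe in the gene, and so whether it reads the deleted exons, is not given in the sources used here. At 4 weeks the Lat difference was -1.37 (adjusted p = 0.00275).

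**Figure D1:**
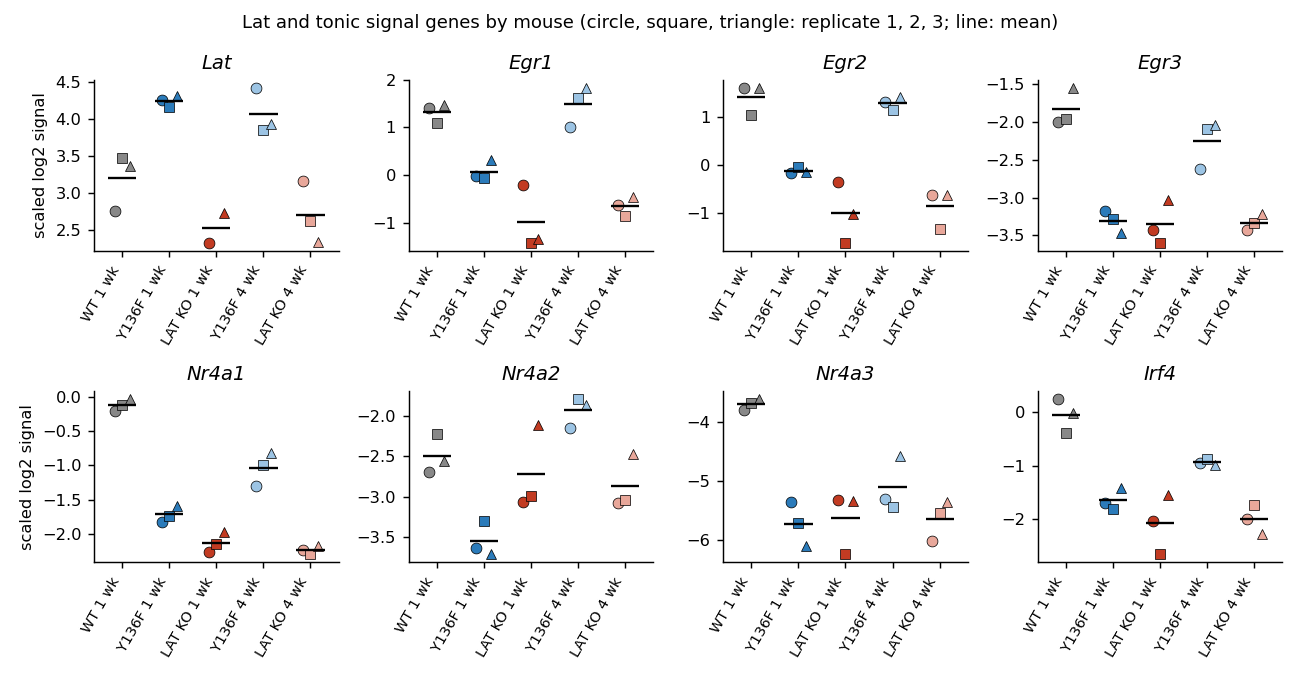
Scaled log2 signal (y axis) of Lat and 7 genes of the tonic signal programme in each mouse of WT at 1 week, and of Y136F and LAT KO at 1 and 4 weeks; each symbol is 1 array and each line a group mean. At 1 week both mutants lie below WT for Egr1, Egr2, Egr3, Nr4a1, Nr4a3 and Irf4, and the LAT KO and Y136F arrays do not overlap for Lat, Egr1, Egr2, Nr4a1 and Nr4a2.

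The promoters of 4 of the early response genes that the following values turn on are shown, from RefSeq (assembly GRCm38.p6), 250 bases before to 50 after the annotated start, 5′ to 3′. Of 9 genes looked for (Lat, Nab2, Irf4, Syp, Egr2, Egr3, Nr4a1, Nr4a2 and Nr4a3), 8 had an entry, all but Egr3. Egr1 was not looked for. Capitals mark the half-site of the cyclic AMP response element, TGACG on either strand, and the CArG box bound by serum response factor. Egr2 has 5 windows, and the printed window was the first of those with most of these motifs.
Nr4a1, chr15:101266596-101266895, plus strand: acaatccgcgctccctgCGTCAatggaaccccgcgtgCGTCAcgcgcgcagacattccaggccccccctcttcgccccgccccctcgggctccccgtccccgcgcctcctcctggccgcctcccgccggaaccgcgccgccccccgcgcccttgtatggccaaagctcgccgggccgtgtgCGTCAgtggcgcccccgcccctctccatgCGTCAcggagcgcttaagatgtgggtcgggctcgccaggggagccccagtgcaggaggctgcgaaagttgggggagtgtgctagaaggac
Nr4a2, chr2:57123954-57124253, minus strand: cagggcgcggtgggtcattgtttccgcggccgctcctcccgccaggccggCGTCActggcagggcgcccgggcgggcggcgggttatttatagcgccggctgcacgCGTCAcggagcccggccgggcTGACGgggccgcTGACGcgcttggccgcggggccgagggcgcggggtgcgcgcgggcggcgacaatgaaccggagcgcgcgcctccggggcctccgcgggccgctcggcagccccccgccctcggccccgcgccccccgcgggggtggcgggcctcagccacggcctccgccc
Egr2, chr10:67537619-67537918, plus strand: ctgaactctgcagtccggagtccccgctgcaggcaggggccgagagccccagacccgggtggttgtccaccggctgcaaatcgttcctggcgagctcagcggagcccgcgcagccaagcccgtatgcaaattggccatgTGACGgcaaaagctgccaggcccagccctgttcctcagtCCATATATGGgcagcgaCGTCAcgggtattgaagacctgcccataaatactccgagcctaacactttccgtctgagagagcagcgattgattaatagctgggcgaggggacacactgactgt
Irf4, chr13:30748983-30749282, plus strand: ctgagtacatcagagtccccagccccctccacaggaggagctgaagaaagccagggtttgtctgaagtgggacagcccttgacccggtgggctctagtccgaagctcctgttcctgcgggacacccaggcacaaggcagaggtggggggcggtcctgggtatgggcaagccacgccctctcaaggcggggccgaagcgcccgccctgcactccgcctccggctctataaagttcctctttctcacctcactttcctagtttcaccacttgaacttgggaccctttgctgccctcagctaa
Among 32851 promoter windows of the same length, 20.8% held TGACG on either strand and 1.63% a CArG box. Nr4a1 and Nr4a2 each hold 4 TGACG matches, Egr2 holds 2 and a CArG box, and Irf4 holds neither. Of the entries not printed, Nr4a3 also holds 4 TGACG matches, and Lat, Nab2 and Syp hold neither motif. These matches are letters in a window and were not tested as sites.

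The EGR genes encode zinc finger transcription factors that T cell receptor signals induce within minutes to hours. Egr1 read -0.20, -1.43 and -1.34 in LAT KO replicates 1, 2 and 3, and -0.03, -0.07 and 0.32 in Y136F replicates 1, 2 and 3, with WT at 1.41, 1.09 and 1.48. Every LAT KO array lay below every Y136F array, and every Y136F array below every WT array, although LAT KO replicate 1 was only just under the lowest Y136F value. The Egr1 difference between the mutants was -1.07 ± 0.27 (SE; 95% interval -1.63 to -0.50; adjusted p = 0.857). It was -1.46 without LAT KO replicate 1 and -0.84 without LAT KO replicate 2, and lay between these as each other array was left out.

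Egr2, whose product restrains T cell activation, read -0.35, -1.64 and -1.04 in LAT KO and -0.18, -0.05 and -0.16 in Y136F, against 1.61, 1.05 and 1.62 in WT. Its order was the same as that of Egr1, with LAT KO replicate 1 again the LAT KO array nearest to Y136F. The Egr2 difference was -0.88 ± 0.27 (SE; 95% interval -1.46 to -0.31; adjusted p = 0.857), and lay between -1.21 and -0.57 as each of the 6 arrays was left out in turn. Leaving out LAT KO replicate 2 gave the smallest of these differences.

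Egr3, a close relative of Egr2, did not separate the mutants. It read -3.43, -3.60 and -3.03 in LAT KO and -3.18, -3.28 and -3.47 in Y136F, so the groups overlapped, and WT lay higher at -2.00, -1.96 and -1.55. Its difference was -0.05 ± 0.21 (SE; 95% interval -0.50 to 0.41), and it turned positive when LAT KO replicate 2 (0.08) or Y136F replicate 1 (0.02) was left out. Egr4 was dim (well above background on 2 of 3 Y136F arrays) and differed by 0.91 ± 0.44 (SE; 95% interval -0.01 to 1.83), but by 0.16 under quantile normalization, 0.24 with normexp background correction and 0.10 in the deposited matrix.

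The NR4A genes encode orphan nuclear receptors, and Nr4a1 (Nur77) is widely used to report the strength of T cell receptor signals. Nr4a1 read -2.27, -2.15 and -1.97 in LAT KO, -1.82, -1.74 and -1.59 in Y136F, and -0.20, -0.12 and -0.03 in WT. The mutants were close to each other and far from WT: every LAT KO array lay below every Y136F array, but the step between the mutants was -0.42 ± 0.15 (SE; 95% interval -0.74 to -0.09; adjusted p = 0.857), against -2.02 from WT to LAT KO (adjusted p = 5.96e-06) and -1.60 from WT to Y136F (adjusted p = 0.000217). Both of these share the 3 WT arrays. Against WT at 1 week, 5 autosomal genes were called lower in LAT KO (0.0305%) and 4 in Y136F (0.0244%), Nr4a1 among both.

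Nr4a2 lay the other way. It read -3.06, -2.99 and -2.11 in LAT KO and -3.63, -3.30 and -3.71 in Y136F, with WT at -2.69, -2.22 and -2.56. LAT KO was above Y136F on every array, by 0.83 ± 0.26 (SE; 95% interval 0.28 to 1.37; adjusted p = 0.857), and LAT KO replicate 3 was the highest. The Nr4a2 difference was 0.52 without that array, 0.51 under quantile normalization and 0.41 in the deposited matrix. Nr4a3 was dim and near the same level in both, -5.63 ± 0.53 (SD, n = 3) in LAT KO and -5.72 ± 0.37 (SD, n = 3) in Y136F, and the sign of its difference of 0.09 ± 0.35 (SE) turned under quantile normalization (-0.64) and in the deposited matrix (-0.27). WT lay between -3.79 and -3.61.

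Irf4, a transcription factor whose amount in T cells follows receptor signal strength, read -2.02, -2.65 and -1.55 in LAT KO and -1.70, -1.80 and -1.42 in Y136F. The groups overlapped, with a difference of -0.43 ± 0.23 (SE; 95% interval -0.92 to 0.06), while WT lay at 0.24, -0.39 and -0.02. Without LAT KO replicate 2 the Irf4 difference was -0.14. Nab2, a corepressor of EGR proteins, differed by -0.30 ± 0.28 (SE) and Slc22a2, an organic cation transporter, by 0.31 ± 0.28 (SE), the latter with its sign turned under quantile normalization (-0.29) and in the deposited matrix (-0.06).

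**Figure D2:**
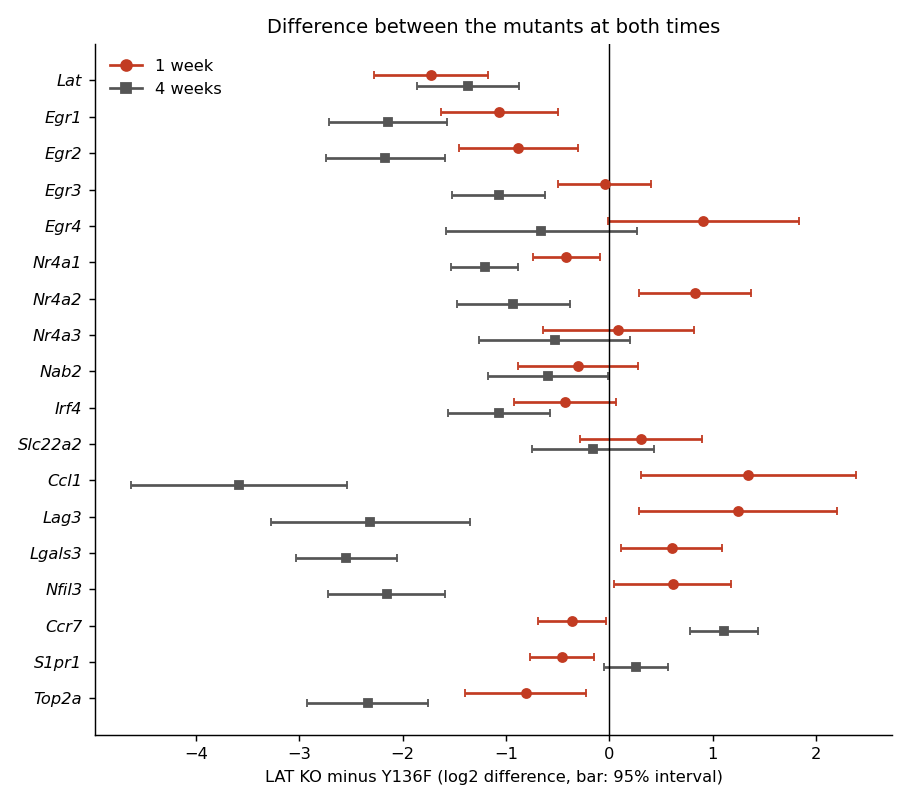
LAT KO minus Y136F difference (x axis, log2; bars are 95% intervals) for 18 genes at 1 week (circles) and at 4 weeks (squares), from 3 mice per group and time. For Egr1, Egr2 and Nr4a1 both intervals lie below 0, whereas for Nr4a2, Ccl1, Lag3, Lgals3 and Nfil3 the 1-week interval lies above 0 and the 4-week interval below.

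Across the 33 tested genes induced early by the T cell receptor, none was called, 2 lay higher in LAT KO without overlap (Nr4a2 and Myc) and 3 lower (Egr1, Egr2 and Nr4a1), near the 4.51% and 6.91% of all autosomal genes, and the median difference was -0.05 against 0.04 over all autosomal genes. Myc was measured on 2 arrays of each mutant only. At 4 weeks the same list had 10 genes called lower in LAT KO (2.81% over all autosomal genes), none called higher, and a median of -0.53.

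Genes of the LAT signalosome and of receptor-proximal signalling had a median difference of -0.10 over 34 genes. None was called, and 6 lay lower in LAT KO without overlap: Lat, Cd3g, Themis, Skap1, Malt1 and Sh2d2a. That share was 6.91% over all autosomal genes and 11.2% in the brightest of 5 equal groups. Themis, which sets thresholds of receptor signalling in thymocytes, read 2.32, 2.37 and 2.07 in LAT KO and 2.67, 2.65 and 2.77 in Y136F, a difference of -0.44 ± 0.15 (SE). WT read 2.39, 1.91 and 1.81, so LAT KO was the nearer of the mutants to WT. A dimmer Themis probe differed between the mutants by -0.19. Malt1, the paracaspase that links the receptor to NF-kB, differed by -0.38 ± 0.16 (SE) and was called lower in LAT KO at 4 weeks (-0.61, adjusted p = 0.0392). Txk, a TEC-family kinase, differed by -0.41 ± 0.16 (SE), with overlap. Sh2d2a was measured on 1 Y136F array only.

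Downstream branches showed small differences of both signs. In the RAS-ERK list of 29 genes the median was -0.10, with Rasgrp1, the exchange factor that diacylglycerol activates (-0.41 ± 0.19, SE), and Nras (-0.38 ± 0.16, SE) lower in LAT KO on every array. Dimmer Nras probes differed by -0.29 and -0.08. In the calcium, calcineurin and NFAT list of 29 genes the median was -0.02. Stim1, the calcium sensor of the endoplasmic reticulum, read 0.30 higher in LAT KO without overlap, and Rcan1, an NFAT target that inhibits calcineurin, 0.44 ± 0.19 (SE) higher with overlap. The NF-kB list of 16 genes had a median of -0.03, with the NF-kB targets Nfkbiz at -0.56 ± 0.23 (SE) and Birc3 at -0.33 ± 0.15 (SE). The class IIa HDAC, MEF2 and protein kinase D list of 11 genes had a median of 0.07, and the 22 negative regulators of the receptor -0.03, among them Ubash3a, a suppressor of receptor signalling, at 0.39 ± 0.16 (SE). None of these genes was called.

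**Figure D3:**
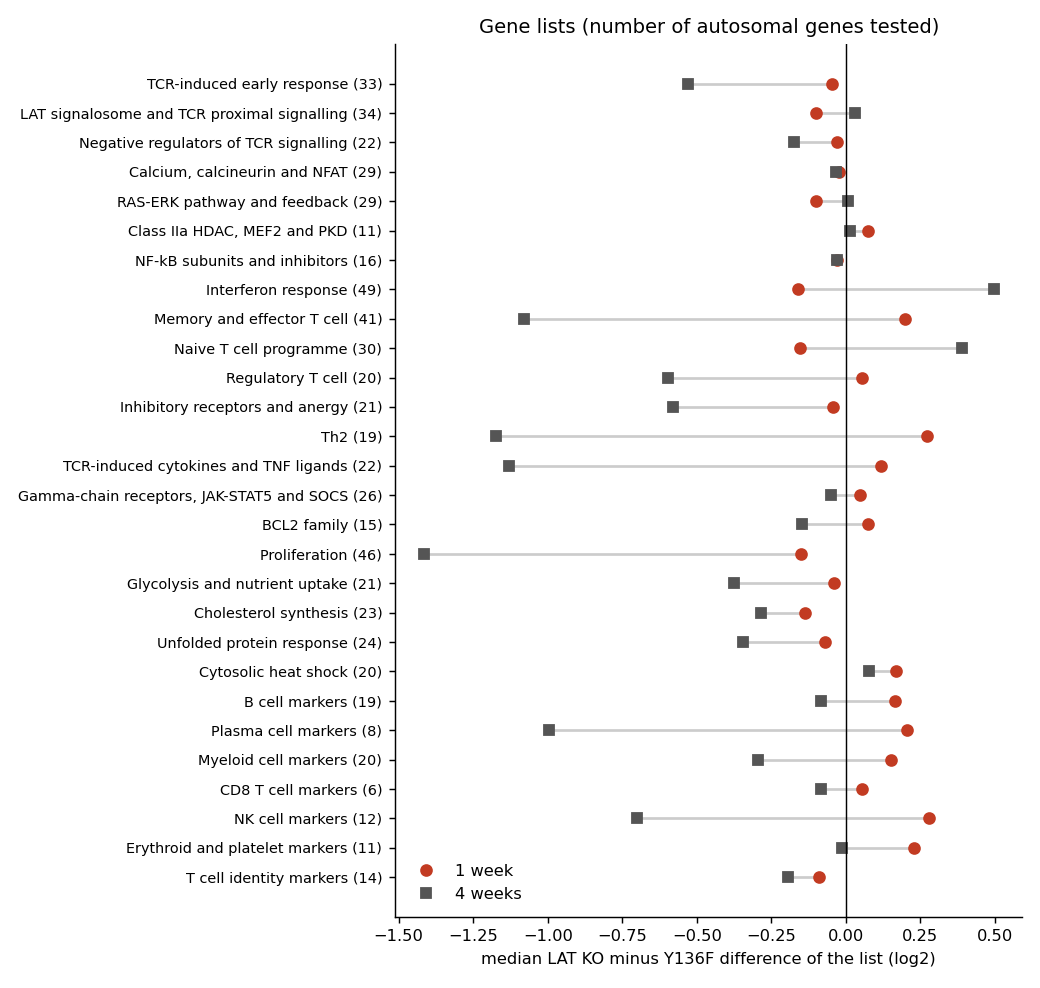
Median LAT KO minus Y136F difference (x axis, log2) of 28 gene lists at 1 week (circles) and 4 weeks (squares), with the number of autosomal genes tested; the lists added after the values were seen are not drawn. The 1-week medians shown lie between -0.16 and 0.28, while at 4 weeks they reach -1.42 for proliferation and 0.50 for the interferon response.

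The lists of T cell state lay near 0 at 1 week. The naive T cell list, made of genes such as the lymph node homing receptors, had a median of -0.15 over 30 genes. None was called and 27 were negative, while 55.3% of all autosomal genes were positive, but only 24.8% of the brightest of 5 equal groups. S1pr1, the receptor that lets T cells leave lymphoid organs, read 2.87, 2.92 and 2.87 in LAT KO and 3.58, 3.24 and 3.21 in Y136F, without overlap (-0.46 ± 0.15, SE). Ccr7, the homing receptor for lymph nodes, read 2.81, 3.18 and 2.88 against 3.33, 3.18 and 3.45, a difference of -0.36 ± 0.16 (SE). At 4 weeks Ccr7 was called higher in LAT KO by 1.11 (adjusted p = 0.00046), and the naive list had 12 genes called higher (1.21% over all autosomal genes) with a median of 0.39.

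Over 41 memory and effector genes the median was 0.20 at 1 week, 33 of them positive (55.3% over all autosomal genes) and none called. At 4 weeks 21 of them were called lower in LAT KO (2.81% over all autosomal genes), with a median of -1.08. LAT KO replicate 1 was the array that stood out: its members lay on average 0.81 above their mean over the 6 arrays, against -0.29 and -0.16 for LAT KO replicates 2 and 3 and -0.24, 0.06 and -0.19 for Y136F. Lgals3, the galectin-3 gene that activated T cells express, read 0.28 in that array, -0.85 and -0.50 in the other LAT KO arrays, and -0.96, -0.85 and -1.08 in Y136F (0.61 ± 0.23, SE). The same array was highest in the lists of regulatory T cells (0.67), T cell cytokines (0.65), B cells (0.79), NK cells (0.85) and CD8 T cells (0.39). Ccl1, a chemokine of activated T cells, read -0.41 there, -3.17 and -2.81 in the other LAT KO arrays and between -3.71 and -3.26 in Y136F, so its difference of 1.35 ± 0.50 (SE) was 0.49 without that array. The Th2 list, with a median of 0.27 over 19 genes, had a median of -0.04 without it. However, the Th2 members lay on average 0.31, -0.18 and 0.29 from their 6-array mean in LAT KO replicates 1, 2 and 3. Without the LAT KO arrays whose sex-linked genes went against the label, but with outlier spots kept, the Th2 median was 0.23.

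Of the inhibitory receptors, Lag3 read -4.24, -5.40 and -3.95 in LAT KO and -5.71, -5.69 and -5.93 in Y136F, above Y136F on every array (1.25 ± 0.46, SE), but 0.59 under quantile normalization. Btla lay lower in LAT KO on every array (-0.41 ± 0.15, SE). The 21 genes of inhibitory receptors and anergy had a median of -0.04. In the BCL2 family Bcl2l11, which encodes the death inducer BIM, read 1.82, 1.06 and 0.63 in LAT KO and 0.79, 0.54 and 0.65 in Y136F. The groups overlapped, LAT KO replicate 1 was the highest array, and the difference was 0.51 ± 0.22 (SE). Bcl2a1b differed by -0.56 ± 0.25 (SE), with overlap. It has near-identical copies whose signal the probe may share.

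Proliferation genes had a median of -0.15 over 46 genes. Of these 39 were negative, while 55.3% of all autosomal genes were positive. None was called and 2 lay lower without overlap (Mcm10 and Kif23), a share below the 6.91% of all autosomal genes. Top2a, a topoisomerase of dividing cells, read -0.22, -1.61 and -1.39 in LAT KO and -0.60, -0.04 and -0.16 in Y136F. LAT KO replicate 1 was thus within the Y136F range and the other LAT KO arrays below it, and the difference was -0.81 ± 0.28 (SE). Tyms (-0.73 ± 0.27, SE), needed for thymidine synthesis, and Cenpa (-0.56 ± 0.19, SE), the centromeric histone, had the same arrangement. At 4 weeks 37 proliferation genes were called lower in LAT KO (2.81% over all autosomal genes), with a median of -1.42.

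By list median the interferon response lay above WT in both mutants, which by the titles also differ from WT in Cre. The list averages of the LAT KO and Y136F arrays overlapped. Its 49 genes had a median of 0.64 over WT in LAT KO and 0.84 over WT in Y136F, with the WT arrays shared, and a median difference between the mutants of -0.16. Of the 49 genes 41 read lower in LAT KO, while 55.3% of all autosomal genes were positive, a share that varied with brightness. For no member did all LAT KO arrays lie above or below all Y136F arrays. By array, the list lay on average 0.44 above the 6-array mean in Y136F replicate 2 and 0.31 below it in LAT KO replicate 3. Ifit1, an interferon-induced RNA-binding protein, read 2.33, 2.82 and 2.32 in LAT KO and 2.59, 3.42 and 2.46 in Y136F.

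Cytosolic heat shock genes had a median of 0.17 over 20 genes, with 4 higher in LAT KO without overlap (Hspa1a, Hspa1b, Hsph1 and Bag3; 4.51% over all autosomal genes) and none called. Hsph1, a partner of HSP70, read 3.35, 2.02 and 2.39 in LAT KO, 1.20, 1.86 and 1.93 in Y136F, and 3.07, 2.94 and 3.46 in WT, so the mutants differed by 0.92 ± 0.28 (SE) with LAT KO the nearer to WT. Hspa1a and Hspa1b are near-identical copies and cannot be told apart with certainty. Cirbp, which cold induces, was among the lowest in LAT KO: 0.77, 1.27 and 0.31, against 2.18, 1.79 and 1.66 in Y136F and 0.73, 0.35 and 0.30 in WT (-1.09 ± 0.28, SE).

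The remaining lists fixed for this comparison also had no gene called. The median was -0.14 for cholesterol synthesis over 23 genes, where Insig1 (-0.56 ± 0.20, SE) and Msmo1 (-0.46 ± 0.20, SE) read lower in LAT KO. Medians were -0.07 for the unfolded protein response over 24 genes and -0.04 for glycolysis and nutrient uptake over 21 genes. They were 0.05 for gamma-chain receptors and SOCS genes over 26 genes, 0.07 for the BCL2 family over 15 genes, and 0.12 for cytokines and TNF ligands over 22 genes. Tfrc, the transferrin receptor, read -0.40 ± 0.19 (SE), Socs3, an inhibitor of cytokine signalling, -0.35 ± 0.14 (SE), and Socs4 -0.39 ± 0.18 (SE). A dimmer Socs4 probe differed by -0.16. Regulatory T cell genes had a median of 0.05 over 20 genes, with Cd83 at -0.54 ± 0.25 (SE).

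The 10 genes higher in LAT KO with the smallest unadjusted p and no overlap were Upk3b, Saa3, Col1a2, Col6a1, Ccdc92, Aebp1, Mgp, Tmem98, Clu and C3, all at an adjusted p of 0.857. Upk3b, a mesothelial membrane protein, lay between -4.43 and -3.76 in LAT KO and read -5.71, -7.28 and -6.52 in Y136F. It was well above background on 1 of 3 Y136F arrays, so the size of its difference (2.44 ± 0.53, SE) is uncertain. Col1a2, a chain of type I collagen, read -0.38, 0.41 and -0.25 in LAT KO, -1.24, -1.28 and -0.89 in Y136F, and -0.62, 0.31 and 0.17 in WT (1.07 ± 0.24, SE). For both genes LAT KO and WT overlapped, and Y136F was the group that lay apart. Saa3, an acute phase protein, had the same arrangement (2.16 ± 0.48, SE), as did Col6a1 (1.27 ± 0.30, SE).

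**Figure D4:**
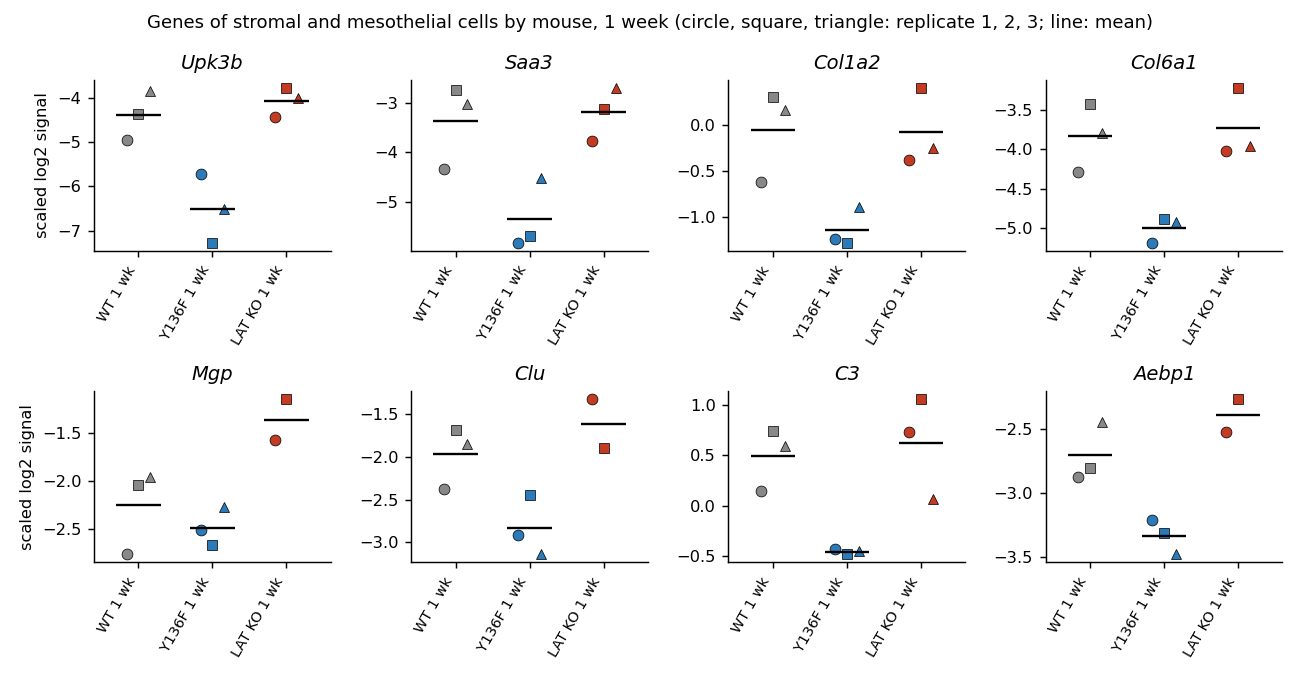
Scaled log2 signal (y axis) of 8 stromal and mesothelial genes in each mouse at 1 week; each symbol is 1 array and each line a group mean, and Mgp, Clu and Aebp1 lack the outlier spot of LAT KO replicate 3. The LAT KO arrays lie above all Y136F arrays in each panel, and within or near the WT range for Upk3b, Col1a2 and Col6a1.

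Lists of such cells were added after these values were seen and are described without a test. They include genes named above, such as Tmem98 in the stromal and Upk3b in the mesothelial list. Their counts and medians are therefore raised in part by the choice of members. Of 31 stromal and endothelial genes, 14 lay higher in LAT KO without overlap, with a median of 0.51, and of 16 mesothelial genes 6 did so, with a median of 0.97; over all autosomal genes 4.51% lay so. With normexp background correction the medians were 0.24 and 0.23. The summed level of the stromal and endothelial genes did not separate the groups, at 6.41 to 6.66 on the log2 scale in LAT KO and 6.32 to 6.70 in Y136F. That of the mesothelial genes was 2.88 to 3.30 against 2.69 to 2.80. Without LAT KO replicate 3 the mesothelial median was 0.29. The part of such cells in any T cell result was not tested, and in RNA of bulk samples fewer cells of a type and less RNA per cell cannot be told apart.

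Markers of other blood cells showed no common separation. Summed B cell markers lay at 5.46 in LAT KO replicate 1 and at 3.75 to 4.47 on the other 5 arrays. Summed NK cell markers lay at 4.61 there and 3.40 to 3.84 on the others, and plasma cell markers at 2.41 there and 1.37 to 1.68 on the others. CD8 T cell markers lay between 3.62 and 4.38, with the same array highest, and myeloid markers between 5.41 and 5.70. Erythroid and platelet markers had a median difference of 0.23 over 11 genes. T cell identity markers lay between 7.42 and 7.90, and Cd4 and Cd3e were well above background on all 6 arrays. No member of a marker list was called. Single members differed both ways: Cd79a of the B cell receptor by 0.68 ± 0.28 (SE), the B cell scaffold Bank1 by -0.52 ± 0.19 (SE) and the myeloid cathepsin Ctss by -0.45 ± 0.14 (SE). The part of such cells in the results above was not tested.

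The genes lower in LAT KO that the same rule named were Lat, D1Pas1, Acot13, Ublcp1, Nipsnap1, Cmc1, Pex2, Nmd3, Cirbp and Egr1, none of them called. Acot13, a thioesterase of mitochondria, read 1.60, 1.69 and 1.42 in LAT KO, 1.95, 2.35 and 2.11 in Y136F and 1.70, 1.77 and 1.37 in WT (-0.57 ± 0.13, SE). Cmc1, an assembly factor of cytochrome oxidase, differed by -0.76 ± 0.18 (SE), Pex2, of peroxisome import, by -0.64 ± 0.16 (SE), and Nmd3, the export adapter of the large ribosomal subunit, by -0.65 ± 0.16 (SE). D1Pas1 differed by -0.74 ± 0.15 (SE); it is a copy of Ddx3x, whose transcript its probe may also read, so its value is uncertain. A list of respiratory chain and mitochondrial ribosome genes was added after these values were seen and includes Cmc1. All 31 tested genes were negative, while 55.3% of all autosomal genes were positive. The median of the list was -0.31 and 5 lay lower without overlap, against 6.91% of all autosomal genes. In the brightest of 5 equal groups of autosomal genes 24.8% were positive and 11.2% lay lower without overlap. The arrays did not separate by group: the list lay on average 0.17 above its 6-array mean in LAT KO replicate 1, and -0.20 and -0.50 in replicates 2 and 3, against -0.06, 0.41 and 0.18 in Y136F. Its median lay 0.09 below WT in LAT KO and 0.23 above WT in Y136F.

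The direction of a difference varied with the brightness of the gene. When the autosomal genes were split into 5 equal groups by mean level, the median difference was 0.40 in the dimmest group and -0.11 in the brightest. The share of positive differences was 83.6% and 24.8%. The share lower in LAT KO without overlap was 1.37% and 11.2%, and the share higher 7.47% and 1.04%. Under quantile normalization the same groups had medians of -0.01 and -0.03, and in the deposited matrix 0.06 and -0.03. The counts of positive and negative members of the gene lists were not set against genes of like brightness. Whether those counts follow this trend was not tested.

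**Figure D5:**
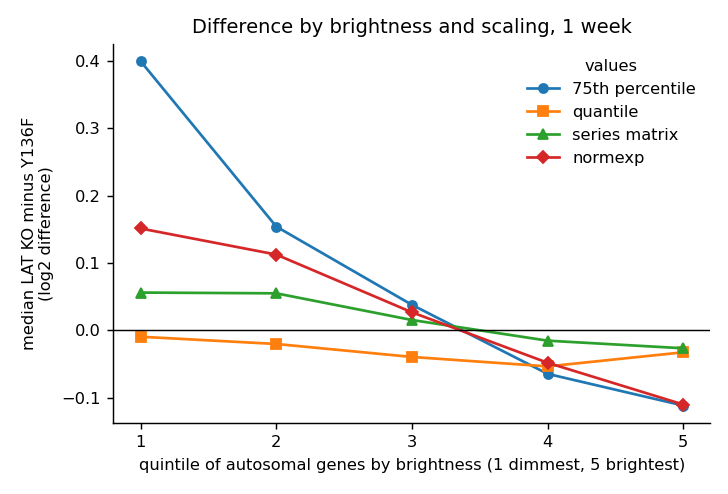
Median LAT KO minus Y136F difference at 1 week (y axis, log2) in 5 equal groups of the autosomal genes by brightness (x axis), under 4 ways of scaling. With 75th-percentile scaling the median goes from 0.40 to -0.11, and under quantile normalization it stays between -0.05 and -0.01.

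Since no autosomal gene was called at 1 week, the genes called between the mutants at 4 weeks are described by their 1-week values. The 199 genes called higher in LAT KO at 4 weeks had a 1-week median of -0.12, with 55 positive and 144 negative, 3 without overlap in the same direction and 24 in the opposite one. The 462 genes called lower at 4 weeks had a 1-week median of -0.01, with 227 positive and 235 negative, 18 without overlap in the same direction and 28 in the opposite one. Over all autosomal genes 55.3% were positive, 4.51% higher and 6.91% lower without overlap. The fit tested the change itself. For 220 of 16387 autosomal genes (1.34%) the difference between LAT KO and Y136F changed between 1 and 4 weeks. Without the 2 LAT KO arrays whose sex-linked genes went against the label, 86 genes were called. Of the 199 genes 63 were among the 220, and of the 462 genes 147. Both sets were chosen by the 4-week difference that the change also contains, so these 2 counts follow in part from that choice. Egr1 (-2.14, adjusted p = 0.000237), Egr2 (-2.17, adjusted p = 0.000237) and Nr4a1 (-1.20, adjusted p = 0.000238) kept their sign and were called lower in LAT KO at 4 weeks, and Egr3 (-1.07, adjusted p = 0.00721) and Irf4 (-1.07, adjusted p = 0.0139) were called there as well. The change in the difference was not called for any of these 5 genes (adjusted p = 0.233 for Egr1, 0.134 for Egr2, 0.0941 for Nr4a1, 0.126 for Egr3 and 0.496 for Irf4).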

How the data were processed

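RNA was labelled with Cy3 and hybridised to 1-colour Agilent mouse 4x44k arrays. Spot intensity and the processed signal were made by the authors with Agilent Feature Extraction 10.5.1.1, per the file headers; limma is named in the submitters' processing notes. The authors' deposited matrix holds log2 values whose column medians lie between 8.56 and 8.57 and whose ranks follow the median spot signal; its normalization is not given in the sources used here. Here log2 of the deposited processed signal intensity was set to the array's 75th percentile, outlier spots and control spots were left out, and the brightest probe of a gene well above background on at least 3 arrays was used. Of 41174 probes 24844 had a gene name, matched to RefSeq for its chromosome. All 18 arrays, in 6 groups, were fitted together with limma 3.58.1 (R 4.3.3; lmFit, eBayes with intensity trend, 12 residual degrees of freedom), and its two-sided p-values were adjusted by Benjamini-Hochberg over all features tested; the script was tested on simulated data. The series text gives 3 mice per genotype, so p-values measure the spread between mice.

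The comparison and its 29 gene lists were chosen with earlier results of these data known, and 3 further lists after the values were seen. Genes named are Lat, the EGR and NR4A families, Nab2, Irf4 and Slc22a2; the 10 per direction with the smallest p and no overlap, since none was called; and up to 4 members per list with the smallest p. The last rule was narrowed after the values were seen, to autosomal members with an unadjusted p under 0.05 and at least 2 arrays per group. Other genes were named after their values were seen. Syp, also in the rule, is X-linked and not described. Alternatives were other background correction, scaling, filters, probe rules, covariates, blocks, array weights, subsets and leaving out each array.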

Additional observations from a re-analysis of the deposited data

Results flagged for a closer look

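For 7 named genes the difference between LAT KO and Y136F changed between 1 and 4 weeks in the test of the change itself (limma, Benjamini-Hochberg adjusted over all features). Each value is the 1-week difference minus the 4-week difference on the log2 scale. Ccl1, a chemokine of activated T cells, had 4.93 (adjusted p = 0.00239), from 1.35 at 1 week and -3.58 at 4 weeks. Lag3, an inhibitory receptor, had 3.56 (adjusted p = 0.0104), and 3.22 (adjusted p = 0.0715) without the LAT KO arrays whose sex-linked genes went against the label. Its call was also lost under quantile normalization (adjusted p = 0.0566), in the deposited matrix (adjusted p = 0.0993) and with slide as a fixed term (adjusted p = 0.0668). Lgals3, the galectin-3 gene, had 3.15 (adjusted p = 0.000151), and Nfil3, a transcription factor induced by interleukins, had 2.77 (adjusted p = 0.0019). Nr4a2 had 1.76 (adjusted p = 0.0206), and its call was lost without Y136F replicate 1 (adjusted p = 0.0668) or replicate 3 (adjusted p = 0.0637), with slide as a fixed term (adjusted p = 0.104) and without the sex-discordant LAT KO arrays (adjusted p = 0.058). Cenpa had 1.15 (adjusted p = 0.0451), and 0.86 (adjusted p = 0.0514) without LAT KO replicate 1. The Cenpa call was lost in 12 of the 22 alternatives that gave it a value, among them quantile normalization, slide or sex as a term and leaving out any Y136F array, with adjusted p from 0.0514 to 0.248. Ccr7, the lymph node homing receptor, had -1.47 (adjusted p = 0.00309), from -0.36 at 1 week and 1.11 at 4 weeks.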

How the results depend on the processing

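Under 24 alternatives no autosomal gene was called at 1 week, with the exception of array weights, which called 35 higher and 39 lower in LAT KO. Those weights were 3.26 for LAT KO replicate 2 and 0.298 and 0.275 for replicates 1 and 3. Of the 64 named genes other than Lat, 17 were then called. The smallest adjusted p among them was that of Col1a2 (1.49, adjusted p = 0.00376). Saa3 was 2.36 and Col6a1 1.68 (adjusted p = 0.00484 for both). Egr1 was -1.36 (adjusted p = 0.00484), Egr2 -1.38 (adjusted p = 0.00484) and Irf4 -0.84 (adjusted p = 0.0454). The fit with the replicate number as a replicate block called 0 higher and 0 lower and gave Lat -1.73 (adjusted p = 0.1996); deviations of arrays with the same number correlated at -0.161, -0.294 and -0.358, so the numbers were not taken as pairs. Lat was not called in any setting (difference -1.93 to -1.29, adjusted p 0.06004 to 0.9377). Leaving out each array in turn kept both counts of calls at 0 and Lat between -1.93 and -1.52.

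Among 64 other named genes, signs turned in 16 of 1536 values. Egr3 was 0.0762 without LAT KO replicate 2 and 0.0180 without Y136F replicate 1, and ranged from -0.207 to 0.0762 as each array was left out. Nr4a3 was -0.644 under quantile normalization, -0.272 in the deposited matrix, -0.0515 with slide as a fixed term and -0.00829 with labelled sex as a term. It was -0.443 with array weights and -0.0506 with the percent of spots above background as a term. In mice labelled female only, which include the sex-discordant LAT KO replicate 1, or without LAT KO replicate 3, it was -0.0621. Nr4a3 was -0.0645 without LAT KO replicate 1 or the sex-discordant arrays (outlier spots kept or not), and -0.100 without Y136F replicate 3. It ranged from -0.100 to 0.392 as each array was left out. Slc22a2 was -0.292 under quantile normalization and -0.0632 in the deposited matrix. The cause was not tested.

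The 4-week count of 661 became 439 with slide as a fixed term, 122 with labelled sex as a term, 1421 with array weights and 428 without the sex-discordant arrays and with outlier spots kept, the last an alternative chosen after seeing the data. The count of 220 changes between times became 49, 187, 455 and 85, and 137 without an intensity trend. The stromal and mesothelial medians of 0.51 and 0.97 were 0.26 and 0.35 under quantile normalization. With 3 arrays per group and a median standard error of 0.22, small differences cannot be resolved, and differences of dim probes depend on the scaling.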
